A study of Medicago truncatula with 12 samples.

Results

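The module described here holds 100 genes of *M. truncatula* whose transcripts were more abundant at 12 h of salt stress than before it, and less abundant at 12 h of drought stress than before it. For each gene, L was the log2 ratio of FPKM + 1 at 12 h to FPKM + 1 at 0 h of that stress, where FPKM is a fragment count divided by the transcript's length and by the depth of the library. Genes were kept if all 3 libraries at 0 h had 1 FPKM or more, the *MtSWEET* sugar transporter genes were left out, and the 100 genes with the highest value of the smaller of L in salt and −L in drought were taken. They were chosen from 20864 genes that passed the filter, among 54073 genes listed. Salt and drought values at 0 h and 12 h therefore chose the members and are described below without any claim of support, whereas the libraries at 2 h and 6 h and the cold libraries after 0 h were outside the choice.

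The plants were wild-type seedlings of the strain Jemalong A17, 4 weeks old. Salt-stressed seedlings were placed in Hoagland solution with sodium chloride, drought-stressed seedlings were laid on dry filter paper, and cold-stressed seedlings were held at a constant low temperature. Each stress was sampled at 0, 2, 6 and 12 h, which gave 12 conditions with 1 library each, so no difference below has a replicate check and no p-value is given. No unstressed library at 2, 6 or 12 h was analysed here, so the effect of a stress and that of time cannot be told apart, while a difference between salt and drought at the same hour compares plants of the same age. In whole seedlings, fewer cells of a type and less RNA per cell cannot be told apart.

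Salt in the root medium lowers the water potential around the root and also brings sodium and chloride ions into the plant, while drying removes water without that ionic load. Both treatments are known to raise the hormone abscisic acid, and many water-stress genes of plants respond to both in the same direction. The genes of the module are those that went opposite ways at 12 h.

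The libraries differed in depth. Recovered from the steps of the FPKM values, it was 0.838 to 1.74 times that of the cold 0 h library, with 0.838 to 0.924 at 12 h, and the libraries held 20766 to 22100 genes at an FPKM of at least 1. Over the genes detected in all 12 libraries, the median ratio of a library was its median log2 difference from each gene's mean log2 value over the 12 libraries. After subtraction of the median ratio of its own 0 h library, it was −0.15, −0.10 and −0.26 at 2, 6 and 12 h of salt. The values were −0.10, −0.25 and −0.27 for drought, and −0.10, −0.17 and −0.18 for cold. *ACTIN* (MTR_3g095530), a cytoskeletal gene often used as an internal reference, had 262, 228, 202 and 185 FPKM at 0, 2, 6 and 12 h of salt and 275, 253, 174 and 168 FPKM of drought, so both stresses had lower values at the later hours. The files give gene identifiers without names, so the roles of the members are not given, the tissue label could not be checked against organ markers, and 2 members are named by identifier.

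The rule's score lay between 2.09 for the first member and 0.743 for the last. The members ranked 98, 99 and 100 scored 0.747, 0.743 and 0.743, and the first 3 genes outside scored 0.741, 0.740 and 0.738, so the limit fell inside a continuous range and not at a gap. L at 12 h of salt was 0.74 to 2.66 with a median of 1.17, against a median of −0.28 over all filtered genes. L at 12 h of drought was −2.95 to −0.74 with a median of −1.12, against −0.26 over all filtered genes. The drought value was the smaller change in 54 members and the salt value in 46.

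A 2-fold change both ways was found in 43 members, which were all the genes with that pattern, 0.206% of those filtered. The opposite pattern, 2-fold lower in salt and 2-fold higher in drought at 12 h, was held by 24 genes (0.115%). Genes 2-fold higher in both numbered 1032 (4.95%) and genes 2-fold lower in both numbered 2933 (14.1%). Among the members, 62 were at least 2-fold higher at 12 h of salt (9.91% of filtered genes) and 63 at least 2-fold lower at 12 h of drought (19.8%). Nothing is read from these shares, since the rule set them.

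The median FPKM of the members was 5.79, 8.65, 10.6 and 16.2 at 0, 2, 6 and 12 h of salt. Under drought it was 8.36, 6.91, 4.61 and 2.79 at the same hours, and under cold 6.88, 6.85, 6.48 and 5.78. The median was lower in salt than in drought at 0 h and higher in salt at each later hour, with a gap that widened between 2 h and 12 h. The order at 0 h and 12 h came with the choice of the members. The summed FPKM of the 100 genes, which the most abundant members dominate, was 1256, 1783, 2149 and 3427 at 0, 2, 6 and 12 h of salt, but 1348, 2217, 953 and 530 of drought. The sum in drought was higher at 2 h than at 0 h, although the median was lower. The drought series was highest at 2 h in 41 members (18.4% of filtered genes). The 22 of these that were 2-fold higher in drought than in salt at that hour are described further on.

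**Figure D1:**
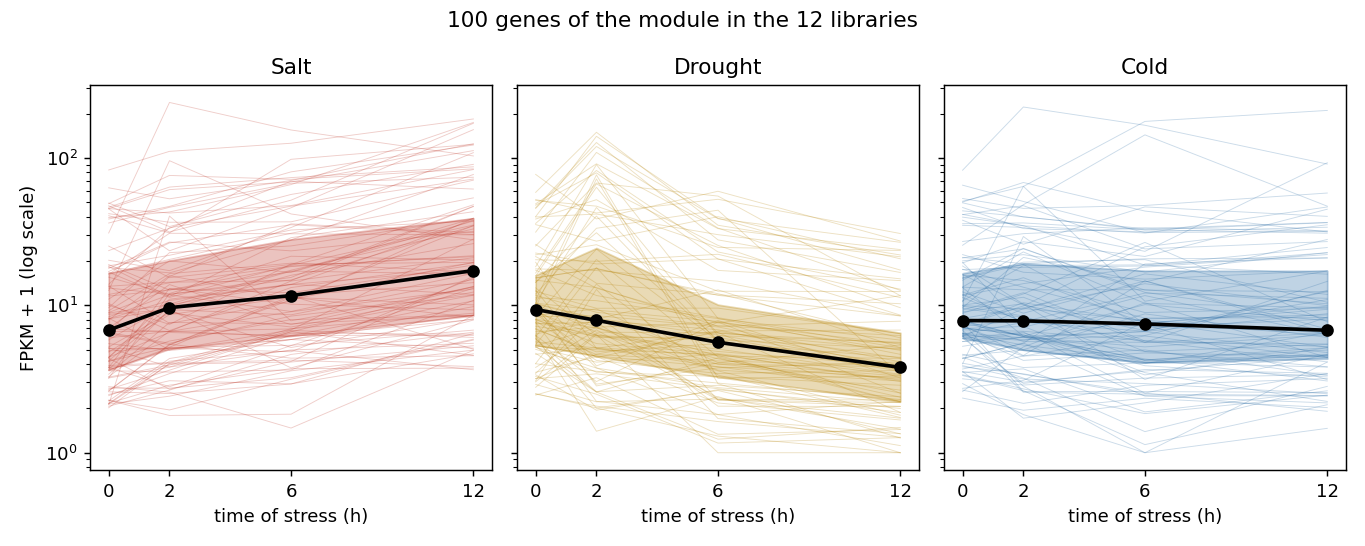
FPKM + 1 of the 100 members on a log axis against hours of salt, drought and cold stress, with 1 thin line per gene, the median as black points and the band from the lower to the upper quartile. The median FPKM reached 16.2 at 12 h of salt and 2.79 at 12 h of drought, while in cold it stayed between 5.78 and 6.88.

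Before stress, the members were moderately expressed. Their mean FPKM over the 3 libraries at 0 h was 1.44 to 79.9 with a median of 6.54, against a median of 9.49 over all filtered genes. At 17 members this mean was at least 20 FPKM (26.8% of filtered genes), and at 33 it was under 5 FPKM (29.6% of filtered genes). The median number of fragments per member was 264 at 12 h of salt and 31.5 at 12 h of drought. Fewer than 10 fragments lay behind the value of 22 members at 12 h of drought and of 14 members at 0 h of salt, and 3 members were at 0 at 12 h of drought. The lowest values are accordingly the least precise.

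The 3 libraries at 0 h, the nearest to replicates in the series, were not alike in the members. Between salt 0 h and drought 0 h, 13 members were 2-fold lower in salt (0.374% of filtered genes) and 0 were 2-fold higher (0.364%), and between salt 0 h and cold 0 h 11 members were 2-fold lower in salt (0.336%). Between drought 0 h and cold 0 h, 0 members were 2-fold apart (0.129% of filtered genes). The salt 0 h library was the lowest of the 3 in 59 members (36.5% of filtered genes). A low salt 0 h value raises L in salt, so the rule itself favours such genes. With the cold 0 h library as the baseline of both stresses, 63 of the 100 genes were chosen again. The salt 12 h value was above all 3 libraries at 0 h in 87 members (32.9% of filtered genes), and the drought 12 h value was below all 3 in 90 (56.9%), as the rule favours.

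The libraries at 6 h, which the rule did not use, separated the members in the direction of the rule. Salt 6 h was at least 2-fold above drought 6 h on the log2(FPKM + 1) scale in 55 members, against 4.94% of filtered genes, and at least 2-fold below it in 0 members, against 1.58%. The median difference was 1.08, and over all filtered genes it was 0.14. Salt was the higher of the pair in 94 members (64.4% of filtered genes) and the lower in 6 (35.5%). The 95% counting interval of the ratio, which covers counting error only, lay above no change in 80 members (41.5% of filtered genes), below it in 1 (19.1%) and held no change in 19. Division of each library by its median ratio left 43 members at least 2-fold higher and 0 lower, and rescaling to TPM left 61 and 0. The shares of filtered genes are those before rescaling, so these rescaled counts have no share beside them.

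The values at 6 h were also set beside the libraries at 0 h. Those of salt and drought entered the rule, so the first 3 counts are a description. Salt 6 h was above all 3 libraries at 0 h in 61 members (34.9% of filtered genes), and drought 6 h was below all 3 in 67 members (56.4%). Both held in 40 members, against 4.84% of filtered genes. Compared with the cold 0 h library alone, salt 6 h was 2-fold higher in 13 members (7.32%) and 2-fold lower in 1 (11%), with a median difference of 0.29 against −0.12 over all filtered genes. Drought 6 h was 2-fold higher in 3 members (8.29%) and 2-fold lower in 31 (19.6%), with a median of −0.63 against −0.24. These comparisons share the cold 0 h library and were not combined.

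At 2 h the members did not yet move as a set. Salt 2 h was at least 2-fold above drought 2 h in 17 members (3.52% of filtered genes) and at least 2-fold below it in 22 (4.25%), so the members were more often apart than other genes, but in both directions. The median difference was 0.17, against −0.02 over all filtered genes, with 56 members above 0 (47.2% of filtered genes) and 44 below (52.8%). The counting interval lay above no change in 37 members (27% of filtered genes) and below it in 32 (30.8%). Compared with cold 0 h, salt 2 h was 2-fold higher in 10 members (5.45%) and lower in 2 (7.57%), and drought 2 h was 2-fold higher in 22 (5.16%) and lower in 13 (5.43%). Past 2-fold, the larger count at 2 h was thus of members higher in drought, while the median and the counting intervals leaned towards salt. No direction of the members at 2 h is therefore given.

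**Figure D2:**
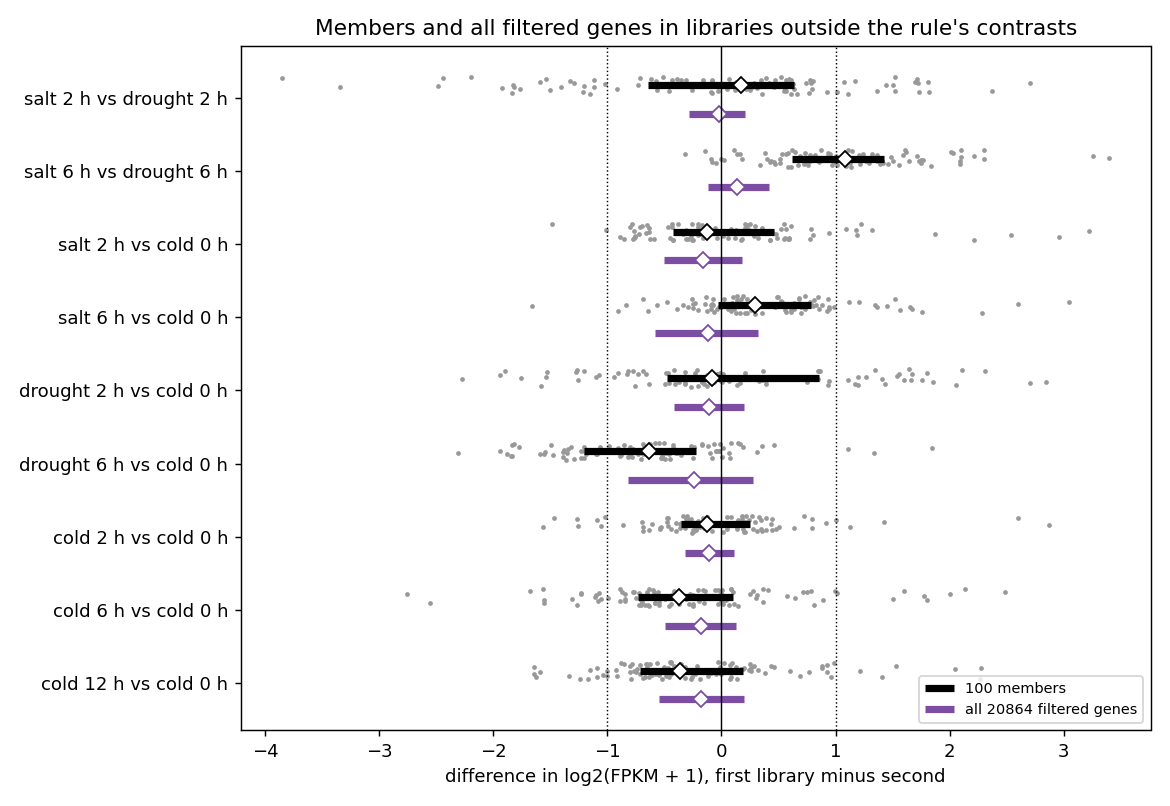
Differences in log2(FPKM + 1) between pairs of libraries, with 1 grey point per member, bars from the lower to the upper quartile and diamonds at the median for the 100 members (black) and all 20864 filtered genes (purple). Dotted lines mark 2-fold. The members' median is 1.08 for salt 6 h against drought 6 h and 0.17 for salt 2 h against drought 2 h.

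Between 2 h and 6 h the members differed within each stress. Salt 6 h was 2-fold above salt 2 h in 9 members (1.75% of filtered genes) and 2-fold below it in 3 (1.98%), with a median difference of 0.38 against 0.04 over all filtered genes. Drought 6 h was 2-fold above drought 2 h in 2 members (4.39%) and 2-fold below it in 34 (10.1%), with a median of −0.41 against −0.14. Of these 34, 22 were the members with the highest drought values at 2 h relative to salt, described further on. In the 17 members that were 2-fold higher in salt at 2 h, drought 6 h was above drought 2 h in 11, with a median of 0.37. Over all filtered genes it was above in 8198 of 20864. Both groups were formed on the 2 h values, which favours a fall in the first and a rise in the second, so nothing is read from either count. The order of 0 h and 12 h within each stress was set by the rule, so the courses are a description, and nothing is read from their shares. In salt, 29 members were higher at every step (11.3% of filtered genes), and in drought 28 were lower at every step (18.4%). The salt series was highest at 12 h in 74 members (23.2% of filtered genes), at 6 h in 17 (15.8%) and at 2 h in 9 (12.9%). The drought series was highest at 0 h in 52 members (46.9%), at 2 h in 41 (18.4%) and at 6 h in 7 (18.1%).

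MTR_4g089155, the member with the highest score (2.09), differed between salt and drought in the direction of the rule from 2 h on. It had 4.82, 9.19, 16.3 and 32.0 FPKM at 0, 2, 6 and 12 h of salt, 8.49, 2.76, 0.817 and 1.23 FPKM of drought, and 8.02, 9.27, 3.86 and 2.83 FPKM of cold. Salt was higher than drought at every hour after 0 h, while at 0 h it was lower. At 6 h it had 681 fragments in salt against 27 in drought, a log2 ratio of 4.32 without a pseudocount, with a counting interval of 3.77 to 4.93. At 2 h the log2 ratio was already 1.73, with an interval of 1.42 to 2.06. At 12 h the cold value was also below its 0 h value, with a log2 ratio of −1.50 (interval −1.91 to −1.11), so the gene was lower in cold and drought and higher in salt.

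MTR_7g016800, the second member (score 1.98), took another course. It had 17.1, 15.6, 26.8 and 76.2 FPKM at 0, 2, 6 and 12 h of salt, 17.3, 89.1, 7.14 and 3.65 FPKM of drought, and 19.97, 23.2, 11.7 and 11.4 FPKM of cold. The 3 values at 0 h were close, and the highest of all 12 values was at 2 h of drought. At 2 h it had 516 fragments in salt against 2616 in drought, a log2 ratio of −2.51 (interval −2.65 to −2.38). At 6 h the ratio had the other sign, 1.91 (interval 1.67 to 2.15), with 846 fragments in salt against 179 in drought. Within drought, the 6 h value was lower than the 2 h value by a log2 ratio of −3.64 (interval −3.87 to −3.42).

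**Figure D3:**
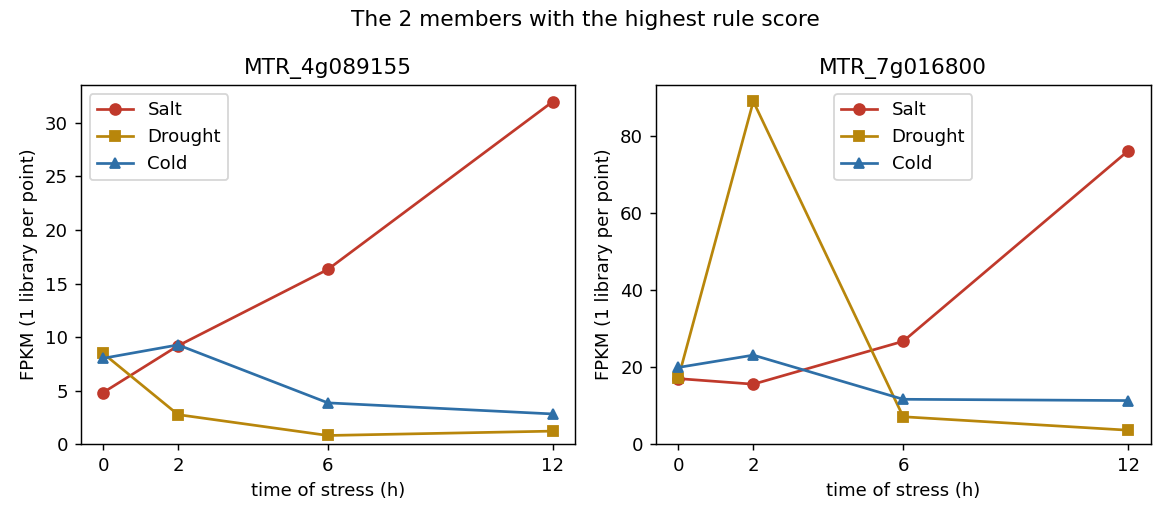
FPKM of the 2 highest-scoring members against hours of salt, drought and cold stress, with 1 library per point and no error bars. MTR_4g089155 reached 32.0 FPKM at 12 h of salt and was at most 2.76 FPKM in drought after 0 h, whereas MTR_7g016800 had 89.1 FPKM at 2 h of drought and 76.2 FPKM at 12 h of salt.

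MTR_7g016800 was 1 of 22 members that were 2-fold higher in drought than in salt at 2 h. They were grouped by their 2 h values, so those values are a description. Their median FPKM was 15.2, 12.5, 14.9 and 36.0 at 0, 2, 6 and 12 h of salt, and 14.1, 56.7, 5.34 and 4.32 of drought. The early peak of the median in drought was followed by medians under the starting level, while the median in salt passed its starting level at 12 h. Drought 6 h was below drought 0 h in 20 of the 22 genes, and salt 6 h was above salt 0 h in 15. Among the 17 members 2-fold higher in salt at 2 h, these counts were 11 and 16. Among the 61 members within 2-fold at 2 h, they were 57 and 58. The 0 h libraries of salt and drought entered the rule, so these counts are a description and have no share of filtered genes beside them. Single genes of the group reached up to 155 FPKM at 12 h of salt and up to 148 FPKM at 2 h of drought. Before stress the group was the most abundant of the 3 groups formed this way, and 7 of the first 10 members by score and 12 of the first 25 belonged to it.

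The 22 genes had a common direction in some of the libraries that neither the rule nor the grouping used. Salt 6 h exceeded drought 6 h in 22 of 22 (64.4% of filtered genes), at least 2-fold in 14 (4.94%). The median difference was 1.21, with a range of 0.44 to 2.09, and the direction held in 22 of 22 under both scalings. It was not particular to the 22, since 94 of the 100 members had it. Cold 6 h was below cold 0 h in 22 of 22, against 65.9% of filtered genes, at least 2-fold in 6 (6.79% of filtered genes), with a median of −0.67. After division by the median ratio it was below in 21 and above in 1, at least 2-fold in 3, with a median of −0.54. At 2 h of cold there was no common direction, with 11 genes above and 11 below cold 0 h and a median of −0.01, and salt 6 h was above cold 0 h in 13 and below it in 9. At 12 h of cold 18 of 22 were below cold 0 h (62.8% of filtered genes), with a median of −0.64 and a range of −1.17 to 1.41. Their median FPKM in cold was 14.7, 16.2, 6.31 and 8.51 at 0, 2, 6 and 12 h, so the median at 6 h was low in cold and drought and near its starting level in salt. Of the 22, 0 were 2-fold apart between any pair of the 3 libraries at 0 h. Such differences were also rare over all filtered genes, with 0.374% 2-fold lower and 0.364% 2-fold higher in salt 0 h than in drought 0 h.

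The 17 members that were 2-fold higher in salt at 2 h had a median FPKM of 8.63, 12.0, 18.1 and 26.8 at 0, 2, 6 and 12 h of salt. In drought it was 8.97, 4.11, 5.71 and 2.89 FPKM at the same hours, and in cold 8.97, 7.47, 10.6 and 5.49 FPKM. Their separation at 2 h came from the grouping and that at 12 h from the rule, so the values at those hours are a description. Salt 6 h exceeded drought 6 h in 16 of 17 (64.4% of filtered genes), at least 2-fold in 13 (4.94%), with a median difference of 1.49. In cold they had no common direction at 6 h, with 9 above and 8 below cold 0 h (65.9% of filtered genes below). At 12 h of cold 0 were 2-fold above cold 0 h (3.49% of filtered genes) and 4 were 2-fold below (8.45%). This balance depended on the scaling, with 3 above and 4 below after TPM rescaling, and 2 and 3 after division by the median ratio. Without a threshold, 11 of 17 were below cold 0 h as deposited (62.8% of filtered genes), and 7 under either scaling. The rescaled counts have no share beside them, and no direction of the group at 12 h of cold is given.

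The remaining 61 members were within 2-fold between salt and drought at 2 h and were the least abundant before stress. Their median FPKM was 3.82, 5.66, 6.51 and 10.7 at 0, 2, 6 and 12 h of salt, 6.97, 5.58, 3.65 and 2.62 of drought, and 6.02, 5.18, 5.67 and 5.46 of cold. Salt 6 h exceeded drought 6 h in 56 of 61 (64.4% of filtered genes), at least 2-fold in 28 (4.94%), with a median difference of 0.93. Of the 13 members with a 2-fold lower value in salt 0 h than in drought 0 h, 11 were in this group, where the median difference between these libraries was −0.34. The part of the low salt 0 h values in the group's L in salt was not tested.

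**Figure D4:**
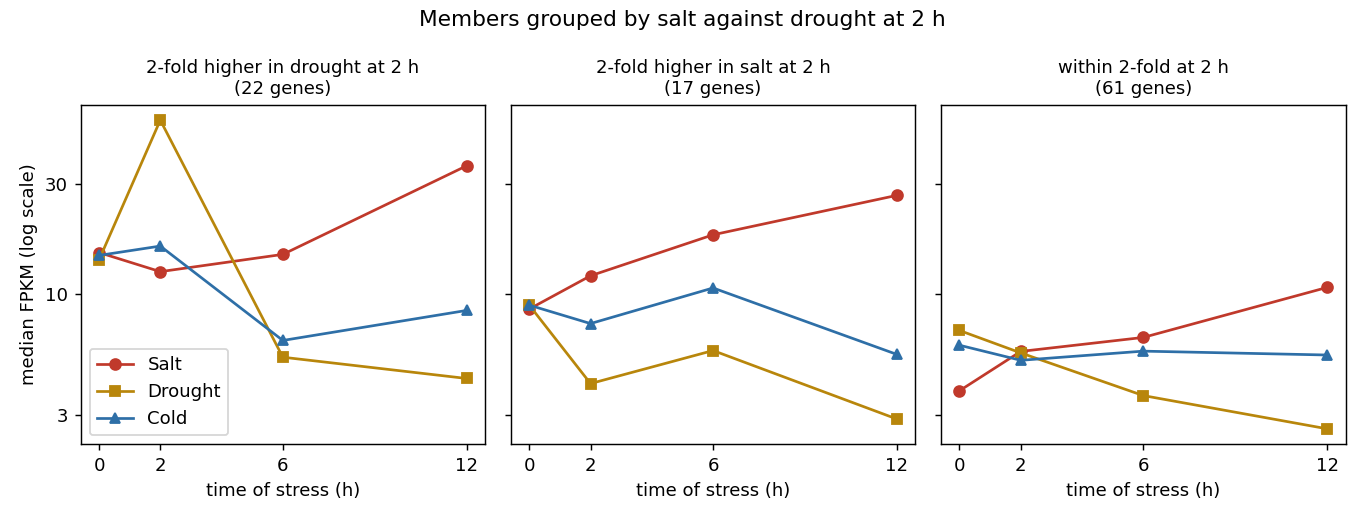
Median FPKM on a log axis against hours of salt, drought and cold stress for members grouped by salt against drought at 2 h, with the number of genes above each panel and no error bars. The 22 genes of the left panel had a median of 56.7 FPKM at 2 h of drought and 36.0 FPKM at 12 h of salt. The medians of the other groups had no such early peak. The grouping by 2 h values favours this contrast, so it is a description. Single genes of the other groups also peaked early, since the drought series was highest at 2 h in 41 members.

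A few members had their highest value early in salt. The member ranked 32 had 29.97, 237, 154 and 102 FPKM at 0, 2, 6 and 12 h of salt, but also 24.3, 66.6, 54.1 and 10.6 FPKM of drought and 24.6, 47.2, 142 and 46.1 FPKM of cold. It was thus higher than at 0 h in every stress at 2 h and 6 h, and lower only at 12 h of drought. The member ranked 30 had 11.6, 94.8, 40.7 and 26.8 FPKM of salt, 10.9, 32.3, 43.2 and 2.36 FPKM of drought, and 11.3, 7.85, 13.6 and 5.49 FPKM of cold. In these 2 genes salt and drought were both above their 0 h values at 2 h and 6 h, and went opposite ways at 12 h only.

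Cold, which had no part in the choice beyond the filter at 0 h, moved the members in both directions. At 2 h of cold 5 members were 2-fold above cold 0 h (2.61% of filtered genes) and 7 were below (2.66%). At 6 h these counts were 8 (3.83%) and 15 (6.79%), and at 12 h 6 (3.49%) and 12 (8.45%). The median differences were −0.12, −0.38 and −0.37 at 2, 6 and 12 h, against −0.11, −0.18 and −0.18 over all filtered genes. The balance of higher and lower members depended on the scaling, since division by the median ratio gave 6 higher and 4 lower at 2 h, 10 and 10 at 6 h, and 12 and 7 at 12 h. Rescaling to TPM gave 13 higher and 11 lower at 12 h. These rescaled counts have no share of filtered genes beside them. No direction of the members in cold is therefore given.

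Individual members were nevertheless far from their starting level in cold. The member ranked 82 had 49.9, 63.1, 176 and 209 FPKM at 0, 2, 6 and 12 h of cold, and its value at 12 h of cold exceeded that of 83.3 FPKM at 12 h of salt. The member ranked 41 had 6.31, 8.91, 24.0 and 34.2 FPKM of cold, and the member ranked 84 had 3.35, 4.53, 18.1 and 20.01 FPKM. In these 3 genes the cold value was the highest of the 3 stresses at 12 h. The member ranked 81 was highest at 2 h of cold, with 63.2 FPKM against 9.59 FPKM at cold 0 h. At 12 h, the cold value lay between the drought and the salt value in 76 members, at or above the salt value in 14 and at or below the drought value in 10.

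The members were spread over all 8 chromosomes as far as the identifiers show, whose digit matched the chromosome for 25 of 25 *MtSWEET* genes. There were 12, 14, 17, 13, 15, 5, 11 and 7 members on chromosomes 1 to 8. Those chromosomes held 14.6, 11.6, 14.1, 16.4, 10.9, 5.97, 11.8 and 12.1% of filtered genes. A chromosome identifier was carried by 94 members (97.5% of filtered genes). Within 10 places in the order of identifiers, 13 members lay in 5 groups of neighbours, and among the 100 genes ranked next 10 lay in 5 groups. Among the 100 genes with the strongest opposite pattern, lower in salt and higher in drought at 12 h, 15 lay in 5 groups. The largest group had 5 genes among the members, 2 among the next 100 and 5 among the genes of the opposite pattern, so being neighbours was not particular to the members. Of the 13 neighbouring members, 9 belonged to the 22 genes that were 2-fold higher in drought than in salt at 2 h. These 9 lay in the group of 5 and in 2 pairs.

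The group of 5 lay on chromosome 7 and held MTR_7g016800 together with the members ranked 4, 6, 28 and 39. They were 5 of 7 consecutive listed genes, and the other 2 were at 0 FPKM in all 12 libraries. All 5 peaked at 2 h of drought, with 39.3 to 89.1 FPKM, against 8.72 to 17.3 FPKM at 0 h of drought, and had 0.259 to 4.62 FPKM at 12 h of drought. At 12 h of salt they had 27.1 to 76.2 FPKM, against 7.18 to 17.1 FPKM at 0 h of salt. The difference between salt and drought was −3.85 to −1.76 at 2 h and 1.21 to 1.77 at 6 h on the log2(FPKM + 1) scale. At 12 h of cold all 5 were below cold 0 h, with differences of −0.92 to −0.32 on that scale. Whether reads were shared between near-identical neighbouring copies was not tested.

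**Figure D5:**
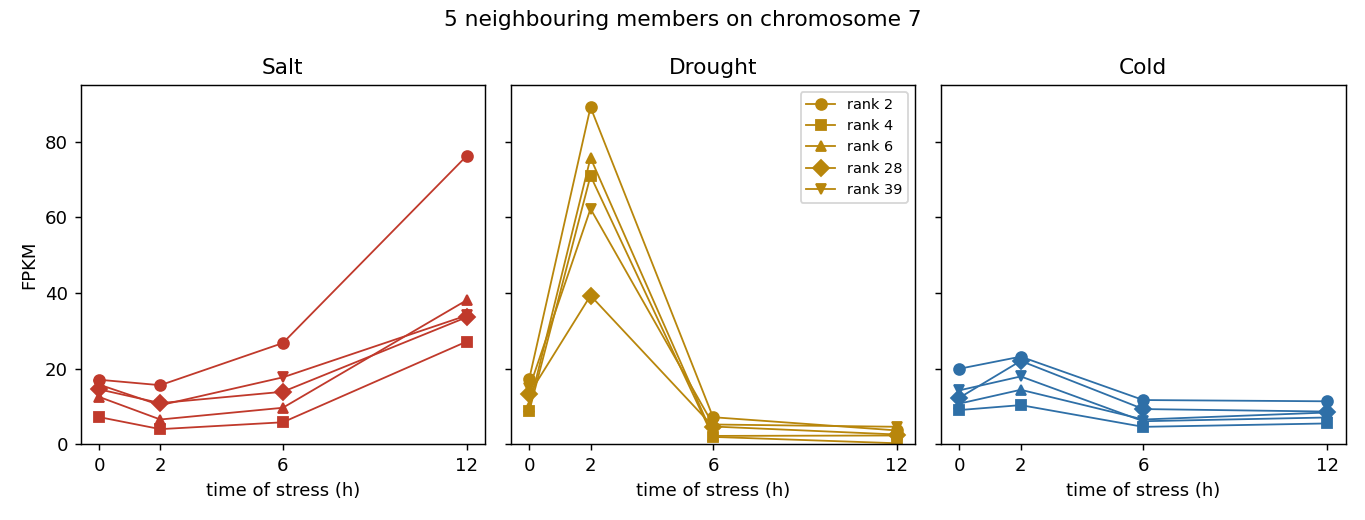
FPKM of 5 neighbouring members on chromosome 7 against hours of salt, drought and cold stress, with 1 line per gene, labelled by its rank in the rule, and 1 library per point. All 5 lines peak at 2 h of drought, between 39.3 and 89.1 FPKM, and are highest at 12 h in salt, between 27.1 and 76.2 FPKM.

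The 2 other pairs of neighbours with the early drought peak showed the same course at lower levels. The pair on chromosome 2, ranked 18 and 24, had 11.8 and 17.1 FPKM at 2 h of drought and 12.1 and 14.3 FPKM at 12 h of salt, while both were at most 1.19 FPKM at 12 h of drought. The pair on chromosome 5, ranked 13 and 56, had 19.5 and 23.0 FPKM at 2 h of drought and 18.4 and 18.6 FPKM at 12 h of salt. In both pairs salt was above drought at 6 h, by 1.09 to 1.64 on chromosome 2 and by 1.21 to 1.29 on chromosome 5.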

How the data were processed

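Whole seedlings of *M. truncatula* were profiled by RNA-seq at 0, 2, 6 and 12 h of salt, drought and cold stress, with 1 library per condition. The deposited values were FPKM, 1 per gene and library, which the authors made with Tophat 2.1.0 and StringTie 2.0 on the Mt4.0v1 assembly, as their methods state. The labels describe tag libraries of transcript 3′ ends, and the submitters list HTSeq and DESeq among their processing tools. How reads mapping to several places were counted is not given in the sources used here. In tag libraries, division by transcript length would bias levels between genes, but not the ratio of 1 gene between libraries without a pseudocount. The filter at 1 FPKM and the differences on the log2(FPKM + 1) scale, and so the choice of members, would be affected.

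The members, the lists and the groupings were chosen with earlier results of these data known. Differences were computed on the log2(FPKM + 1) scale, where the pseudocount of 1 understates changes of low genes, and a gene was counted past 2-fold. Most counts on the deposited values were set beside the same count over the 20864 filtered genes. Counts after rescaling have no such share. No model for counts was fitted to these FPKM values. Whole fragments were recovered for 20863 filtered genes and all 100 members, from the exact ratios of low values between libraries. The tolerance was 0.002 fragments and widened slightly with the count. The smallest whole numbers that fit were taken, so the true counts of a gene could be a multiple of them. Fragments gave 95% Clopper-Pearson intervals of ratios, which cover counting error only. The recovery was tested on simulated data.

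Gene identifiers were matched to RefSeq, with 0 matches among its 39590 genes, so lists by function and organ markers could not be applied and no sequence is shown. By rule, 2 members, *ACTIN* and *MtSWEET1a* are named by identifier, and members given by rank were chosen after their values were seen. Alternatives were pseudocounts of 0.1 and 0.5, thresholds of 1.5-fold and 3-fold, other filters and baselines, and 2 scalings. Python 3.11.15, numpy 2.4.6, pandas 2.3.3 and scipy 1.17.1 were used.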

Additional observations from a re-analysis of the deposited data

How the results depend on the processing

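Of the 100 genes, 85 were chosen again with a pseudocount of 0.1, 92 with 0.5, 85 after TPM rescaling, 68 after median ratio scaling, 68 without a filter, 68 against the mean of the 3 libraries at 0 h, 63 against cold 0 h and 54 with an FPKM of at least 5 at 0 h. At 6 h the 55 members 2-fold apart between salt and drought became 21 at 3-fold, and 36 of the 54 members with an FPKM of at least 5 at 0 h were apart, a smaller set by construction. At 2 h the 39 members became 19 at 3-fold. Against cold 0 h, the count of changed members at 1.5-fold and 3-fold was 37 and 5 for salt 2 h (12 at 2-fold), 41 and 7 for salt 6 h (14), 56 and 10 for drought 6 h (34), 23 and 2 for cold 2 h (12), 54 and 9 for cold 6 h (23), and 49 and 7 for cold 12 h (18), and for drought 2 h (35) it was 16 at 3-fold. Salt 6 h gave 28 against its own 0 h library, and cold 12 h gave 29 with a pseudocount of 0.1. The step between 2 h and 6 h, added after the data were seen, had 12 changed members in salt, which became 41 at 1.5-fold, 2 at 3-fold, 20 with a pseudocount of 0.1 and 19 after TPM rescaling, and 36 in drought, which became 23 at 3-fold. Neighbouring members, also an added count, numbered 13 within 5 places and 15 within 20, where the 100 genes ranked next reached 15 as well. The remaining alternatives stayed within 1.5 times the reported count. Where no cause follows from the alternative itself, the cause was not tested. No paired analysis was possible because each condition had 1 library and no result comes from a test, and for the same reason no library could be left out of a group. Depth limits members under 10 fragments, most of all at 12 h of drought.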

Other observations

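*MtSWEET1a* (MTR_1g029380), which encodes a member of the SWEET family of sugar transporters, was left out by the rule but had the same pattern at 12 h, with a score of 1.16 that would place it at rank 28. It had 1.20, 2.28, 2.79 and 15.6 FPKM at 0, 2, 6 and 12 h of salt, 1.54, 1.37, 1.71 and 0.135 FPKM of drought, and 1.57, 0.649, 0.769 and 0.692 FPKM of cold. The last drought value rested on 2 fragments. Its salt and drought values differed mainly at 12 h.

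The 100 genes with the strongest opposite pattern, lower in salt and higher in drought at 12 h, were compared at the hours that their choice did not use. Salt 6 h was 2-fold above drought 6 h in 1 of them (4.94% of filtered genes) and 2-fold below it in 34 (1.58%), with a median difference of −0.70. At 2 h the counts were 3 (3.52%) and 19 (4.25%), with a median of −0.40, so these genes lay on the side of their 12 h pattern at both hours, whereas the genes raised in salt and lowered in drought were divided at 2 h.

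Across the 100 members, the difference between salt and drought at 2 h and that at 6 h had a Pearson r of 0.12 and a Spearman rho of 0.14. This is a description across genes, which share the libraries of each hour and are not independent replicates.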
